A study of Mus musculus with 8 samples.

Results

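The SOX transcription factors of rib chondrocytes were followed in RNA-seq of wild-type and *Mir140*-null mice. The group holds 7 genes, *Sox4*, *Sox5*, *Sox6*, *Sox8*, *Sox9*, *Sox11* and *Sox12*, of the 52325 gene identifiers in each library. They were chosen by name, with earlier results of these data known. All 7 were among the 17177 genes tested between genotypes, a gene being tested where 4 or more libraries had 0.5 TPM or above. TPM, a measure of transcript abundance, are scaled by transcript length and by the total of the library, so levels of different genes can be set side by side within a library.

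Each genotype had 4 libraries, made from primary costal chondrocytes of mice aged 7 d on a C57BL/6J background, released from the rib by collagenase and not sorted. The *Mir140*-null mice carry a germline CRISPR/Cas9 deletion of the microRNA gene *Mir140*, so every cell of the animal lacks it and not the chondrocytes alone. Founders of mixed C57BL/6 and CBA/ca origin were backcrossed to C57BL/6J, and both the null and the wild-type lines came from heterozygous parents. No cell of either genotype received a treatment. The labels do not say whether animals were pooled or shared a litter, so p-values measure only the spread between these libraries.

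SOX proteins bind DNA through an HMG box related to that of SRY. SOX9, of the SOXE subgroup with SOX8, is required for cartilage to form and activates the genes of the cartilage matrix. SOX5 and SOX6, of the SOXD subgroup, carry no activation domain of their own and help SOX9 to occupy its enhancers. SOX4, SOX11 and SOX12 form the SOXC subgroup, which acts in progenitors and in the perichondrium around the growth plate. SOX9 is also known to drive *Wwp2*, the gene in whose intron *Mir140* lies.

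The microRNA removed in the null mice is shown first, with the matches in the SOX mRNAs to the forms of its 3′ arm. The *Mir140* hairpin (chr8:107551244-107551313 of GRCm38, the build also called mm10, plus strand; sequence from RefSeq) is printed with the annotated mature miR-140-3p in capitals. The 3′ arm of the hairpin gives isomiRs with different 5′ ends, and for these the seed (bases 2 to 8) is in capitals. The form named miR-140-3p.2 starts at the annotated 5′ end, and miR-140-3p.1 starts 1 base further along the hairpin. Both are printed at the annotated length, so the 3′ end of miR-140-3p.1 is set by that length and was not observed. The forms most detected by the study in human cartilage extend further at the 3′ end. The other arm gives miR-140-5p, whose sites were not searched, so a member without a match below may still pair with miR-140-5p.
Mir140 hairpin: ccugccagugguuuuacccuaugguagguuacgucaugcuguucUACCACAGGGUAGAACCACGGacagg
miR-140-3p.2: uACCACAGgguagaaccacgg
miR-140-3p.1: aCCACAGGguagaaccacgga

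The longest annotated 3′UTR of each member was searched on the mRNA strand for these seeds in 3 classes of match. The 7m8 class pairs with bases 2 to 8 (CCTGTGG for miR-140-3p.1, CTGTGGT for miR-140-3p.2), the 7a1 class pairs with bases 2 to 7 and is followed by an A (CTGTGGA and TGTGGTA), and the 8mer meets both. *Sox11* held 2 matches to miR-140-3p.1, *Sox8* held 1, and *Sox12* held 2. *Sox12* also held 3 matches to miR-140-3p.2 and *Sox5* held 1. *Sox9*, *Sox6* and *Sox4* held no match to either isomiR in 3′UTRs of 2250, 6046 and 2780 bases, and no 8mer was found in any member. The windows below show matches in *Sox5*, *Sox8*, *Sox11* and *Sox12*, with the match in capitals and DNA letters as in GENCODE M21.
Sox5, miR-140-3p.2: gggccaacagaCTGTGGTgagccgaggact
Sox8, miR-140-3p.1: tgaaaggacatCTGTGGAtgctcgaggata
Sox11, miR-140-3p.1: cctttgtatagCCTGTGGcctgcaagcacg
Sox12, miR-140-3p.1: cccgaccttgcCCTGTGGttctgcatgtgt
Counted from the first base after the stop codon, the matches begin at base 15 in *Sox5* (chr6:143833243-143833249, minus strand), base 419 in *Sox8* (chr17:25566908-25566914, minus strand), base 3963 in *Sox11* (chr12:27337252-27337258, minus strand) and base 1859 in *Sox12* (chr2:152394889-152394895, minus strand). The *Sox12* window overlaps a miR-140-3p.2 match that begins 1 base later, at 1860, and the same pair recurs at bases 3035 and 3036. The second *Sox11* match, a 7a1, begins at base 3097.

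Such matches are common, and more so in long 3′UTRs. Of 12981 tested genes with an annotated 3′UTR, 30.3% held a match of any class to miR-140-3p.1 and 24.9% held one to miR-140-3p.2, in 3′UTRs with a median length of 1157 bases. Among genes whose 3′UTR was within 20% of the length of that of *Sox11*, 210 of 300 held a miR-140-3p.1 match, and for the length of *Sox8* the share was 32.2%. For the lengths of *Sox5* and *Sox12*, 59.2% and 45.6% held a miR-140-3p.2 match. *Sox6* held none although 70.6% of genes with a 3′UTR of like length held a miR-140-3p.1 match and 69.8% a miR-140-3p.2 match. A match of letters does not show that the site is used. The map of matches sets them along each 3′UTR.

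**Figure D1:**
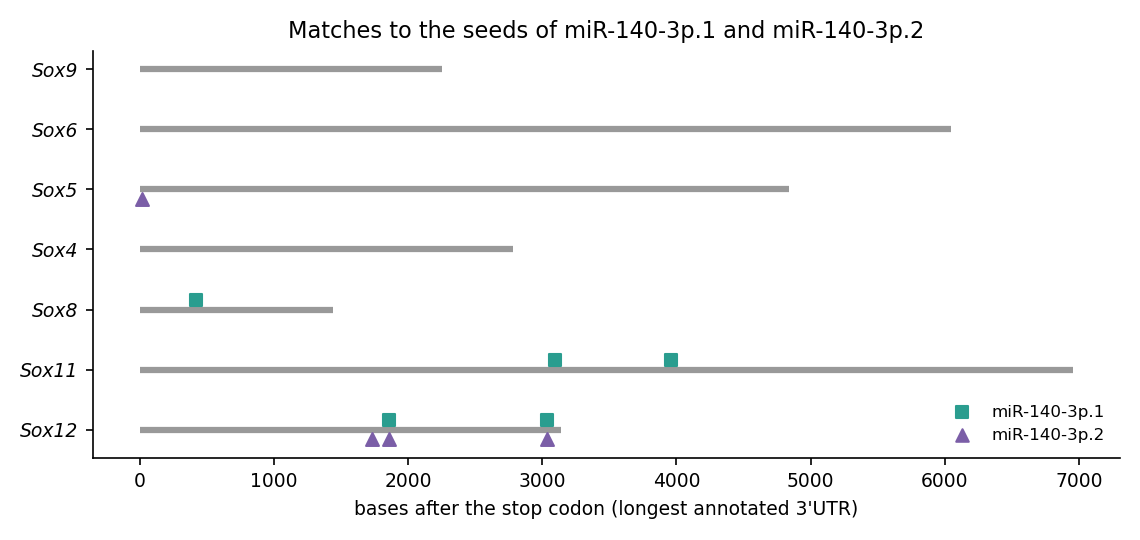
Positions of matches to miR-140-3p.1 (squares) and miR-140-3p.2 (triangles) along the longest annotated 3′UTR (grey line) of the 7 SOX genes, in bases after the stop codon. *Sox12* holds the most marks, with 2 squares and 3 triangles, and *Sox9*, *Sox6* and *Sox4* hold none.

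Before the members are compared, the libraries need a short account. All 8 chondrocyte markers checked, *Col2a1* and *Acan* among them, were at 1 TPM or more in every library. They summed to 58940 to 73810 TPM in wild-type and 43230 to 59510 TPM in *Mir140*-null libraries. The *Mir140* gene was listed at 0 TPM in all libraries but the one labelled *Mir140*-null replicate 2, at 8.86 TPM, so it does not check the labels. *Mir140*-null replicates 1 and 2 stood apart in the summed TPM of 8 fibroblast and perichondrium markers, none of which was at 0 in any library. The sum came to 3527 to 6401 TPM in the wild-type libraries, to 883.3 and 1058 TPM in *Mir140*-null replicates 1 and 2, and to 5615 and 4248 TPM in replicates 3 and 4. *Pdgfra*, a receptor on the same list, went the other way, with 11.8 to 19.8 TPM in wild-type and 31.5 to 36.5 TPM in *Mir140*-null libraries (adjusted p = 0.0085). Other library measures moved with genotype as a whole. The mitochondrial share of TPM was 4.06% to 6.99% in wild-type and 8.41% to 10.1% in *Mir140*-null libraries, and 8 skeletal muscle markers, of which *Myog*, *Pax7* and *Myl1* were at 0 in some libraries, summed to 67.8 to 83.2 and 33.0 to 58.9 TPM. *Tnnt3* made up most of the muscle sum, and its own ranges overlapped, at 40.4 to 73.1 and 28.4 to 54.4 TPM. *Ckm* and *Myl1* had higher means in *Mir140*-null libraries. The part of these measures and markers in the differences below was not tested. The read depth behind each TPM value is unknown, and in RNA from bulk cells a lower share of a cell type cannot be told apart from less RNA per cell.

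In rib chondrocytes *Sox9* was the most abundant SOX gene, followed by *Sox6* and *Sox5*, and the other 4 were far lower. In the wild-type libraries *Sox9* had a mean of 146.4 TPM ± 20.7 (SD, n = 4), *Sox6* 80.2 ± 20.2 and *Sox5* 45.3 ± 8.2 TPM. *Sox4* had 5.84 ± 1.28 TPM, *Sox8* 5.15 ± 0.83, *Sox11* 4.75 ± 0.50 and *Sox12* 0.495 ± 0.142 TPM. By wild-type mean, *Sox9* ranked 737 of the 17177 tested genes, *Sox6* 1267, *Sox5* 2146 and *Sox12* 16842.

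*Sox9* exceeded *Sox6*, and *Sox6* exceeded *Sox5*, in 8 of 8 libraries, although the ranges of *Sox6* and *Sox5* across wild-type libraries overlapped. The ranges of *Sox4*, *Sox8* and *Sox11* overlapped in wild-type libraries, where *Sox4* exceeded *Sox11* in 4 of 4 and *Sox8* in 3 of 4, and *Sox8* exceeded *Sox11* in 2 of 4. In the *Mir140*-null libraries these 3 genes kept apart, with *Sox4* above *Sox8* and *Sox8* above *Sox11* in 4 of 4, though the lowest *Sox4* value (8.13 TPM) and the highest *Sox8* value (8.12 TPM) nearly met. *Sox12* was the lowest member in every library.

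By subgroup, the SOXE pair made up 46.7% to 59.6% of the summed TPM of the 7 genes in wild-type libraries and 46.8% to 64.7% in *Mir140*-null libraries. The SOXD pair made up 35.6% to 48.9% and 31.4% to 48.7%, and the SOXC trio 2.72% to 4.85% and 3.45% to 4.51%. The ranges of the genotypes overlapped for each subgroup. *Sox6* was 1.51 to 1.94 times *Sox5* in wild-type libraries and 1.27 to 1.88 times in *Mir140*-null libraries.

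**Figure D2:**
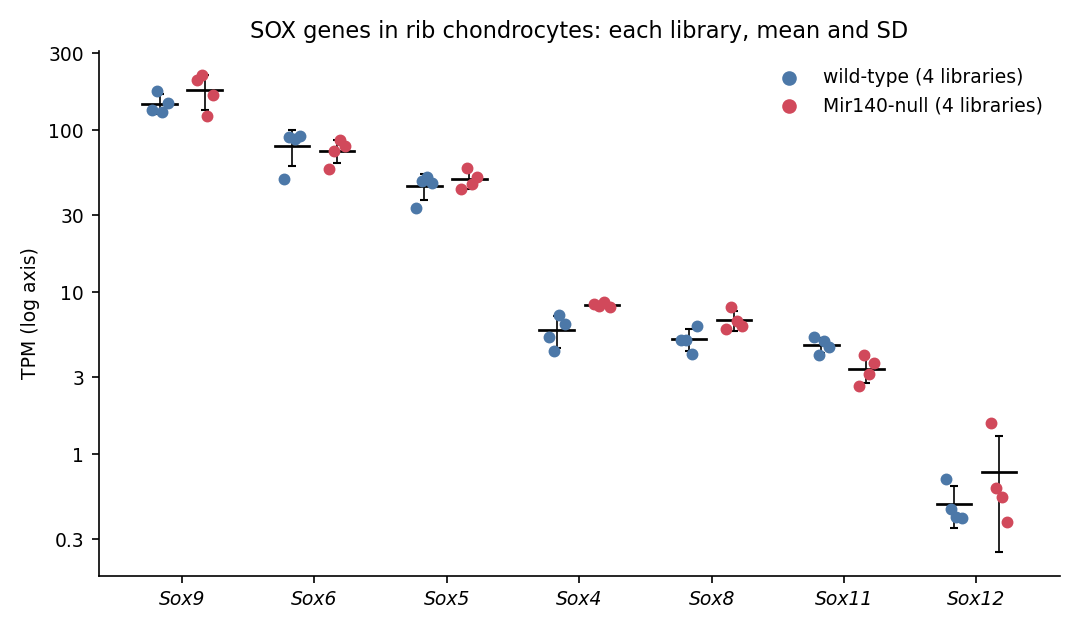
TPM (log axis) of the 7 SOX genes in every library, wild-type in blue and *Mir140*-null in red, with the mean (bar) and SD (whisker) of 4 libraries. The genes fall from *Sox9* at 122 to 219.6 TPM to *Sox12* at 0.383 to 1.55 TPM, and only for *Sox4* and *Sox11* do the blue and red points not overlap.

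The comparison of genotypes asks whether loss of *Mir140* came with another level of these regulators. None of the 7 members passed an adjusted p under 0.05 in limma (linear model on log2(TPM + 1), Benjamini-Hochberg over all genes tested), where 16.9% of all tested genes did. At an unadjusted p under 0.05, 2 members passed, *Sox4* and *Sox11*, against 33.9% of tested genes. Those 2 were also the members whose genotypes did not overlap, which was so for 25.9% of tested genes. The median log2 fold change of the members was 0.21, beside -0.01 over all tested genes. A log2 fold change here is the *Mir140*-null minus the wild-type mean of log2(TPM + 1), and it understates the change of genes at a few TPM or fewer.

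*Sox9* (ENSMUSG00000000567, chr11:112782224-112787760, plus strand), the chief regulator of the chondrocyte fate, was measured at 134, 175, 129 and 147 TPM in wild-type replicates 1 to 4. In *Mir140*-null replicates 1 to 4 it was at 204, 219.6, 122 and 165 TPM. The 2 highest values were those of *Mir140*-null replicates 1 and 2, the lowest was that of *Mir140*-null replicate 3, and the genotypes overlapped. The log2 fold change was 0.25 (SE 0.19, 95% interval -0.19 to 0.70, adjusted p = 0.39). *Mir140*-null replicates 1 and 2 also had the lowest summed fibroblast and perichondrium markers, along with the other low sums given above. Leaving out a single library gave *Sox9* values from 0.14 (without *Mir140*-null replicate 2) to 0.42 (without *Mir140*-null replicate 3, adjusted p = 0.094). With replicates 3 and 4 alone set against all wild-type libraries, a comparison chosen after seeing the data, the log2 fold change of *Sox9* was -0.03 (adjusted p = 0.93). This comparison leaves out the 2 libraries with the highest *Sox9*, so a lower difference follows from the choice. The part of the marker difference in the *Sox9* level was not tested.

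*Sox8* (ENSMUSG00000024176, chr17:25565892-25570686, minus strand), the closest relative of *Sox9* among the members, was at 5.12, 5.12, 4.17 and 6.20 TPM in the wild-type libraries. It was at 5.91, 8.12, 6.68 and 6.22 TPM in the *Mir140*-null libraries. Only *Mir140*-null replicate 1 lay below the highest wild-type library. Between genotypes it differed by 0.33 on the log2 scale (SE 0.15, 95% interval -0.01 to 0.68, adjusted p = 0.16). *Mir140*-null replicate 2, the highest library, also had the highest sum of 5 Schwann cell markers, at 153.6 TPM against 6.13 to 49.84 TPM in the other libraries. None of the 5 markers was at 0 in any library, and their part in the *Sox8* level was not tested.

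The SOXD genes did not pass the test, and their intervals spanned 0. *Sox5* (ENSMUSG00000041540, chr6:143828425-144781977, minus strand) was at 33.2, 48.8, 51.6 and 47.4 TPM in wild-type and 43.4, 59.0, 46.7 and 51.8 TPM in *Mir140*-null libraries. Wild-type replicate 1 was the lowest and *Mir140*-null replicate 2 the highest, with the rest intermixed. For *Sox5* the log2 fold change was 0.16 (SE 0.16, 95% interval -0.22 to 0.53, adjusted p = 0.53), and it was 0.02 without wild-type replicate 1, 0.08 without *Mir140*-null replicate 2 and -0.00 after quantile normalization.

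*Sox6* (ENSMUSG00000051910, chr7:115470872-116038796, minus strand), the partner of *Sox5*, was at 49.95, 90.6, 88.2 and 92.0 TPM in wild-type and 58.2, 75.1, 87.6 and 79.6 TPM in *Mir140*-null libraries. Replicate 1 was the lowest library of each genotype for *Sox6*, and for *Sox5* too. For *Sox6* it was -0.07 (SE 0.22, 95% interval -0.57 to 0.44, adjusted p = 0.86). Its sign was not stable, since it was 0.05 without *Mir140*-null replicate 1, 0.01 without wild-type replicate 2 and 0.01 without wild-type replicate 4, and -0.28 without wild-type replicate 1.

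Within the SOXC subgroup, *Sox4* and *Sox11* lay on opposite sides. *Sox4* (ENSMUSG00000076431, chr13:28948919-28953713, minus strand), a factor of progenitor cells, was at 5.33, 4.35, 7.29 and 6.41 TPM in wild-type libraries. It was at 8.47, 8.23, 8.75 and 8.13 TPM in *Mir140*-null libraries, all above the highest wild-type library. The *Mir140*-null libraries lay within a much narrower band (SD 0.276 TPM) than the wild-type libraries (SD 1.28 TPM). On the log2 scale the difference was 0.48 (SE 0.15, 95% interval 0.12 to 0.83, adjusted p = 0.068), and the exact permutation test over the 70 assignments of libraries gave a two-sided p = 0.0286, the smallest that it can give. That p is for *Sox4* alone and is not adjusted for the number of genes. Any gene whose genotypes do not overlap gets it, and 25.9% of tested genes did not overlap. The log2 fold change was 0.48 (adjusted p = 0.20) with *Mir140*-null replicates 3 and 4 only.

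*Sox11* (ENSMUSG00000063632, chr12:27334264-27342574, minus strand), which shares progenitor roles with *Sox4*, was at 5.29, 4.12, 4.98 and 4.60 TPM in wild-type libraries. It was at 2.65, 4.08, 3.15 and 3.65 TPM in *Mir140*-null libraries, all below the lowest wild-type library, though the nearest values were 4.08 and 4.12 TPM. Its difference was -0.40 on the log2 scale (SE 0.15, 95% interval -0.73 to -0.06, adjusted p = 0.096; exact permutation test, two-sided p = 0.0286, not adjusted). It was -0.38 (adjusted p = 0.17) with *Mir140*-null replicates 3 and 4 only. The *Sox11* mRNA holds the 2 miR-140-3p.1 matches printed or placed above.

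The ratio of *Sox4* to *Sox11* sets those differences in a single value per library, and was chosen after their values were seen. It was 1.01, 1.06, 1.47 and 1.39 in wild-type replicates 1 to 4, and 3.20, 2.02, 2.78 and 2.23 in *Mir140*-null replicates 1 to 4. The genotypes did not overlap in it, which follows from the separate ranges of *Sox4* and *Sox11* in opposite directions. *Sox4* exceeded *Sox11* in every library. No test was made of this ratio, since it was built from the observed differences.

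*Sox12* (ENSMUSG00000051817, chr2:152393611-152398063, minus strand), the weakest activator of the SOXC trio, was near the limit of the filter, at 0.706, 0.459, 0.41 and 0.405 TPM in wild-type libraries. It was at 1.55, 0.624, 0.548 and 0.383 TPM in *Mir140*-null libraries, so 1 wild-type and 3 *Mir140*-null libraries carried it over the filter. *Mir140*-null replicate 1 alone was above 1 TPM. Its log2 fold change was 0.21 (SE 0.19, 95% interval -0.23 to 0.65, adjusted p = 0.47).

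Other *Sox* genes were at low levels. Of 12 checked, 4 were tested and none passed limma's adjusted p or an unadjusted p under 0.05. *Sox13*, the third SOXD gene, was at 1.43 to 3.48 TPM in wild-type and 1.66 to 2.90 TPM in *Mir140*-null libraries. *Sox7*, *Sox17* and *Sox18*, the SOXF genes of endothelium, reached 2.62, 1.53 and 0.521 TPM at most in wild-type libraries and 3.32, 1.48 and 1.05 TPM in *Mir140*-null libraries. For each of these 3 genes the highest *Mir140*-null value was that of replicate 3. That library also had the highest sum of 6 endothelial markers, at 29.98 TPM against 4.02 to 23.3 TPM in the other 7, and none of the 6 was at 0 in any library. The part of these cells in the *Sox7*, *Sox17* and *Sox18* levels was not tested. *Sox21* was at 0.472 to 0.961 TPM in wild-type and 0.231 to 1.0 TPM in *Mir140*-null libraries.

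Among the non-coding RNAs annotated in or near SOX loci, a single one was called. The long non-coding RNA *2610035D17Rik* (ENSMUSG00000087259, chr11:113043895-113201838, minus strand) lies 256 kb beyond the 3′ end of *Sox9*, on the other strand. It was at 3.10, 5.27, 3.91 and 5.01 TPM in wild-type libraries and 17.3, 17.4, 10.3 and 9.81 TPM in *Mir140*-null libraries. Every *Mir140*-null library was above every wild-type library, and *Mir140*-null replicates 1 and 2, which also had the highest *Sox9*, were the highest. The mean rose from 4.32 ± 1.01 to 13.7 ± 4.2 TPM, 3.17 times the wild-type mean, with a log2 fold change of 1.44 (SE 0.24, adjusted p = 0.011). With *Mir140*-null replicates 3 and 4 only, the log2 fold change was 1.07 (adjusted p = 0.049). The relation of *2610035D17Rik* to *Sox9* was not tested.

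*Sox5os3* (ENSMUSG00000085785, chr6:144672868-144693834, plus strand), annotated antisense within *Sox5*, had 0.872, 2.38, 1.75 and 1.73 TPM in wild-type and 0.0788, 0.588, 0.649 and 0.903 TPM in *Mir140*-null libraries. Wild-type replicate 1 and *Mir140*-null replicate 4 overlapped, and the other *Mir140*-null libraries were below all wild-type libraries. This gave a log2 fold change of -0.79 (SE 0.23, adjusted p = 0.051), just short of the threshold. Without wild-type replicate 1 the adjusted p was 0.038, and without *Mir140*-null replicate 4 it was 0.0499. Those were the only 2 of the 8 fits leaving out a library in which it passed, and the highest adjusted p was 0.108. The library kit keeps the strand, but whether the counting used it is not given in the sources used here, so reads of *Sox5* and of *Sox5os3* may not have been told apart.

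*Sox6os*, antisense at *Sox6*, was at 0.492 to 1.75 TPM in wild-type and 0.289 to 0.831 TPM in *Mir140*-null libraries (log2 fold change -0.42, SE 0.20, adjusted p = 0.17). The fourth tested RNA, *Sox2ot* of the *Sox2* locus, had a log2 fold change of 0.01 (adjusted p = 0.98). Of these 4, 1 passed, beside the 16.9% of all genes. The remaining 6 with a row in the files, most of them in *Sox5*, did not reach the filter.

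**Figure D3:**
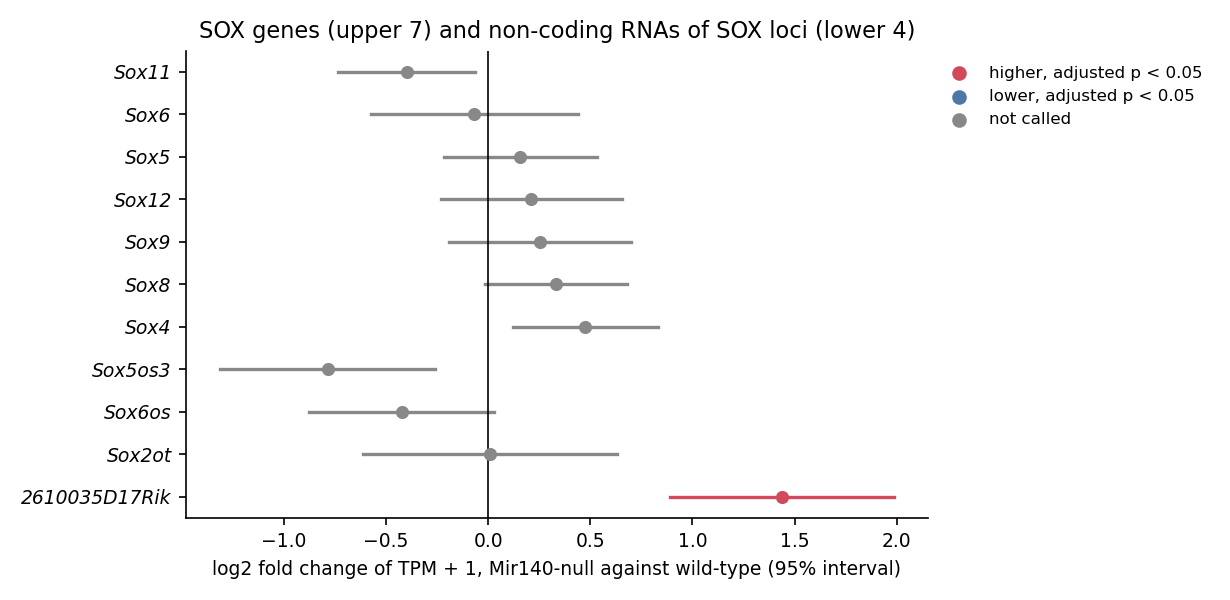
Log2 fold change of TPM + 1 between *Mir140*-null and wild-type libraries (4 each), with 95% intervals from limma, for the 7 SOX genes and 4 tested non-coding RNAs of SOX loci, *Sox2ot* of the *Sox2* locus among them. Grey marks are not called, and the single red mark, *2610035D17Rik* at 1.44, is the only one past an adjusted p of 0.05.

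**Figure D4:**
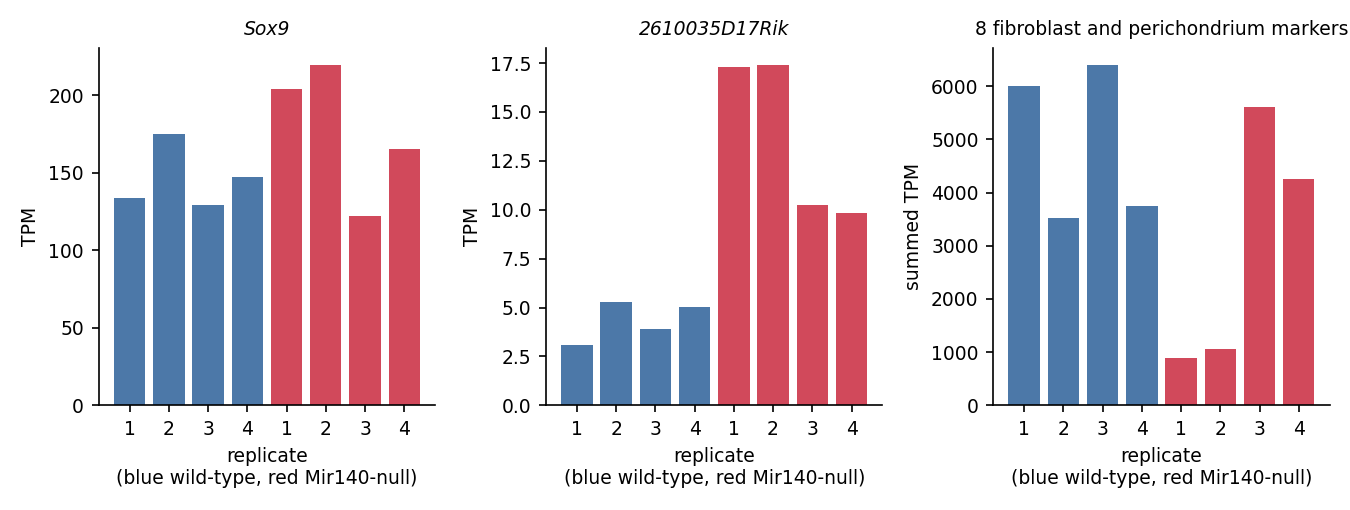
TPM of *Sox9*, of *2610035D17Rik* and summed over 8 fibroblast and perichondrium markers, for wild-type (blue) and *Mir140*-null (red) replicates 1 to 4. *Sox9* and *2610035D17Rik* are highest in *Mir140*-null replicates 1 and 2, where the markers are lowest, at 883.3 and 1058 TPM. The osteoblast, erythroid, endothelial and macrophage marker sums, not drawn, are lowest there too.

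The genes that SOX9 is known to activate were described as a list of 18 cartilage genes, chosen with earlier results of these data known. Of these, 5 were lower in *Mir140*-null libraries, 3 were higher and 10 did not pass the test, beside 6.4% lower and 10.5% higher among all tested genes. The median log2 fold change of the list was -0.14. *Sox9* itself did not pass the test, as given above.

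Lower were *Chad* (chondroadherin, a cartilage matrix protein that cells bind), *Hapln1* (link protein, which fixes aggrecan to hyaluronan) and the minor fibril collagen *Col11a1*. *Chad* fell from 1346 ± 335 TPM to 572.5 ± 67.0 TPM (SD, n = 4; log2 fold change -1.21, SE 0.18, adjusted p = 0.0080). *Hapln1* fell from 358 ± 16.1 to 241.5 ± 22.7 TPM (log2 fold change -0.57, SE 0.09, adjusted p = 0.010), and *Col11a1* from 3110 ± 177 to 2231 ± 414 TPM (-0.50, SE 0.14, adjusted p = 0.047). *Col9a3* (-0.48, adjusted p = 0.027) and *Col9a1* (-0.43, adjusted p = 0.047) also fell and are named after their values were seen. *Col2a1*, the main cartilage collagen and the most abundant tested gene in wild-type libraries, had a log2 fold change of -0.49 (SE 0.16) and did not pass (adjusted p = 0.070).

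Higher were *Acan* (aggrecan, the main cartilage proteoglycan), *Ucma* (a secreted protein of the upper growth plate) and *Matn4* (a matrilin). *Acan* was at 447, 681, 491 and 590.3 TPM in wild-type and 1085, 996, 876 and 1083 TPM in *Mir140*-null libraries, with no overlap (log2 fold change 0.88, SE 0.15, adjusted p = 0.011). *Ucma* rose from 735 ± 68.9 to 1150 ± 182 TPM (0.64, SE 0.13, adjusted p = 0.018) and *Matn4* from 28.6 ± 3.3 to 45.4 ± 10.3 TPM (0.63, SE 0.18, adjusted p = 0.0498). *Acan* and *Col2a1* thus lay on opposite sides of 0 in the same libraries. *Acan* was 0.725% to 1.11% of *Col2a1* in wild-type libraries and 2.06% to 3.15% in *Mir140*-null libraries, a ratio set up after the values were seen and not tested. *Wwp2*, host of *Mir140* and a SOX9 target, had a log2 fold change of -0.16 (SE 0.15, adjusted p = 0.49).

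The calls of *Chad*, *Hapln1* and *Acan* held in each of the 8 fits that left out a library, while *Ucma* was lost without wild-type replicate 3 (adjusted p = 0.052), *Col11a1* passed only without *Mir140*-null replicate 4 (0.040) and *Matn4* only without *Mir140*-null replicate 1 (0.021). *Col9a1* passed only without *Mir140*-null replicate 4 (0.040), and *Col9a3* was lost without wild-type replicate 1 (0.061), 3 (0.056) or 4 (0.074). In the fit with *Mir140*-null replicates 3 and 4 only, *Matn4* passed (0.87, adjusted p = 0.037). The others did not, with log2 fold changes of -1.13 for *Chad*, -0.48 for *Hapln1*, -0.44 for *Col11a1*, -0.47 for *Col9a3*, -0.41 for *Col9a1*, 0.84 for *Acan* and 0.57 for *Ucma*.

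**Figure D5:**
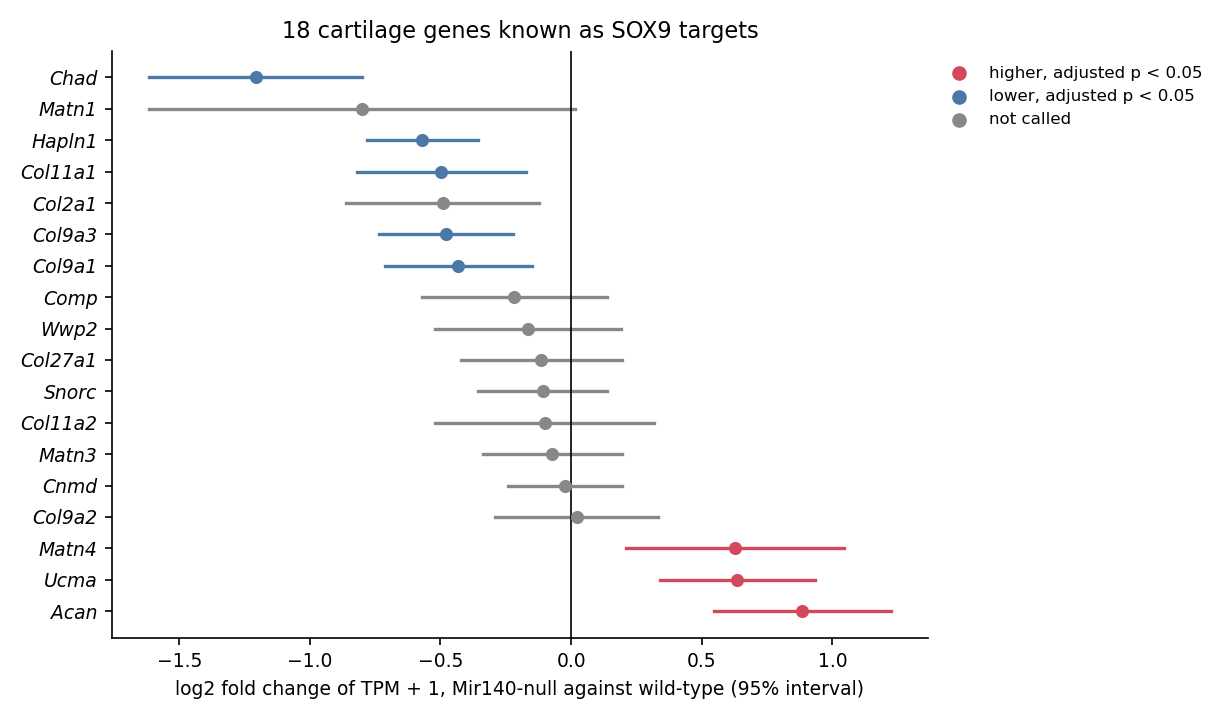
Log2 fold change of TPM + 1 between *Mir140*-null and wild-type libraries, with 95% intervals from limma, for 18 cartilage genes known as SOX9 targets. Blue marks fell (5 genes, *Chad* lowest at -1.21), red marks rose (3 genes, *Acan* highest at 0.88) and 10 grey marks were not called.

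Partners and regulators of SOX9 were taken as a further list of 16 genes, 15 of them tested, again chosen with earlier results known. Of these 3 rose, none fell and 12 did not pass, beside 10.5% higher and 6.4% lower among all tested genes. The median log2 fold change of the list was 0.36. *Kpnb1*, an importin that carries SOX9 into the nucleus, rose from 27.2 ± 2.1 to 48.0 ± 15.3 TPM (log2 fold change 0.75, SE 0.20, adjusted p = 0.037). *Creb1*, a cAMP-responsive factor, rose from 4.07 ± 0.46 to 6.71 ± 1.33 TPM (0.59, SE 0.15, adjusted p = 0.036). *Hif1a*, the hypoxia factor needed for growth plate chondrocytes to survive, rose from 256 ± 34.3 to 383.6 ± 27.2 TPM (0.59, SE 0.12, adjusted p = 0.017).

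The acetyltransferases *Ep300* and *Crebbp*, which act with SOX9 at enhancers, had log2 fold changes of 0.43 (adjusted p = 0.055) and 0.36 (adjusted p = 0.14). *Ppargc1a*, a metabolic coactivator, had the lowest value of the list at -0.77 (adjusted p = 0.073). Also not called were *Smad3* at 0.69 (adjusted p = 0.12) and *Kat5* at 0.42 (adjusted p = 0.051). These uncalled genes are named beyond the rule for called genes, with their values seen. The number called higher was 0 without *Mir140*-null replicate 2 or without wild-type replicate 3, 1 without wild-type replicate 1 or 4, 2 without wild-type replicate 2 or *Mir140*-null replicate 3, and 0 with *Mir140*-null replicates 3 and 4 only. *Hif1a* stayed between 0.50 and 0.65 with single libraries left out and passed in 6 of those 8 fits, with an adjusted p of 0.051 in both others. With *Mir140*-null replicates 3 and 4 only, *Hif1a* was 0.56, *Creb1* 0.51 and *Kpnb1* 0.48.

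The protein-coding gene that followed each member most closely over the 8 libraries was taken as the highest Pearson r of log2(TPM + 1) among 13111 tested genes. So high an r is in part a product of choosing the best of many, and the points share their libraries and scaling. The nearest gene was *Zfyve1* for *Sox4* (r = 0.98), *Cdc42bpg* for *Sox9* (r = 0.96), *Tssc4* for *Sox8* (r = 0.97) and *Fignl1* for *Sox11* (r = 0.97). It was *Tmem19* for *Sox5* (r = 0.96), *Spata13* for *Sox6* (r = 0.97) and *Cdc25a* for *Sox12* (r = 0.97). *Cdc25a* was at 9.50 TPM in *Mir140*-null replicate 1, where *Sox12* was highest, and at 3.82 to 4.77 TPM in the other libraries. By rank its correlation was lower (Spearman rho 0.76), as was that of *Tmem19* (0.81). *Zfyve1* was at 4.16 to 9.10 TPM in wild-type and 12.8 to 14.1 TPM in *Mir140*-null libraries, so it kept the genotypes apart as *Sox4* did. *Cdc42bpg* was at 19.98 and 18.8 TPM in *Mir140*-null replicates 1 and 2 and at 6.76 to 11.6 TPM in the other libraries, the split that *Sox9* showed.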

How the data were processed

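RNA of costal chondrocytes, in 4 libraries from wild-type and 4 from *Mir140*-null mice grouped by the genotype in their labels, was sequenced as single-end reads on an Illumina NextSeq500 from a stranded mRNA kit. The authors deposited TPM per Ensembl gene, made with Salmon against the mm10 transcriptome. FastQC 0.11.7, Salmon and DESeq2 are named in the submitters' processing notes, and the Salmon version and strand setting are not given in the sources used here. The deposited TPM sum to 1000000 per library once identifiers listed on several lines with the same value are counted once. They hold no read counts, so depth is unknown and no counting interval was computed, and the factors of unwanted variation of the study were not used here.

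GENCODE M21 gave symbols, positions and 3′UTRs (99.8% of identifiers matched), and RefSeq the microRNA. A linear model on log2(TPM + 1) was fitted with limma 3.58.1 (R 4.3.3) to genes that reached 0.5 TPM in 4 or more libraries, with a mean-variance trend, genotype as the only term, and Benjamini-Hochberg adjustment over all 17177 genes. On simulated data with known changes, larger than that estimated for any member, the fit missed a part of them, so a gene not called may still differ. Genes at the lowest levels were not changed in it, and changes as small as those of the members were not simulated. Other steps used Python 3.11.15, pandas 2.3.3 and SciPy 1.17.1, with figures from matplotlib 3.10.9. A gene of the SOX9 cofactor list is not reported here. The members and gene lists were chosen with earlier results of these data known. All members are named, with the gene most like each, other *Sox* genes at 1 TPM or more in any library, and the called genes with the 3 largest changes in each direction of the other lists. Alternatives were a pseudocount of 0.1, no filter, a mean of at least 5 TPM, median-ratio scaling, scaling to nuclear protein-coding genes, quantile normalization, replicate number as a block, 1 factor from residuals, the shortest 3′UTR, and leaving out each library. A fit with *Mir140*-null replicates 3 and 4 only was added after seeing the data.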

Additional observations from a re-analysis of the deposited data

Results flagged for a closer look

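In wild-type replicate 1, *Sox6* was at 49.95 TPM, while the other 3 wild-type libraries lay between 88.2 and 92.0 TPM. Its gap to the nearest of them was 0.908 of the range of the group, above Dixon's 95% critical value for 4 samples. Wild-type replicate 1 was the lowest library for *Sox5* as well, at 33.2 TPM, and without it the log2 fold change of *Sox6* was -0.28 (adjusted p = 0.25 from limma). *Col2a1*, a target of SOX9, was at 47890 TPM in wild-type replicate 3, with 60170 to 61630 TPM in the other wild-type libraries, a gap of 0.894 of the range. These were 2 of 42 groups of 4 examined over 21 genes, and chance flags about 1 group in 20.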

How the results depend on the processing

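The SOX members stayed at 0 called in each direction under every alternative run with limma. *Sox4*, *Sox8*, *Sox11* and *Sox12* kept their direction throughout, as did *2610035D17Rik*, which was called in 17 of 17 alternatives (adjusted p 0.0033 to 0.049). By the exact permutation test, unadjusted, *Sox4* (0.48) and *Sox11* (-0.40) both gave p = 0.0286, as does any gene whose genotypes do not overlap. The sign of *Sox5* turned under quantile normalization (-0.0036). With *Mir140*-null replicates 3 and 4 only, *Sox6* was 0.10 and *Sox9* -0.0317. Leaving out single libraries moved *Sox6* between -0.28 and 0.05, *Sox9* between 0.14 and 0.42 and *Sox5* between 0.02 and 0.23.

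*Sox5os3* passed with 1 factor from residuals (-0.79, adjusted p = 0.027), with median-ratio scaling (-0.80, adjusted p = 0.043) and with the replicate block (-0.79, adjusted p = 0.044), and lay between -0.95 and -0.62 with single libraries left out. In all it was called in 5 of 16 alternatives. The adjusted p was 0.126 without the filter, 0.089 with a pseudocount of 0.1 and 0.069 after quantile normalization. With *Mir140*-null replicates 3 and 4 only it was 0.209. The replicate numbers did not pair the samples: same-numbered libraries correlated by 0.03, 0.02, 0.07 and -0.01 in their deviations. Under this block 671 genes were called higher and 454 lower over the whole table, 1 SOX9 target higher and 2 lower, and 2 SOX9 cofactors higher.

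Over all genes, 1797 were called higher and 1100 lower. Without the filter the counts were 977 and 539. Genes called lower numbered 605 at a mean of at least 5 TPM and 2016 with 1 factor from residuals. With *Mir140*-null replicates 3 and 4 only, 386 were called higher and 234 lower. Leaving out single libraries gave 755 to 1551 higher and 337 to 1251 lower. Of the SOX9 targets, 3 were called higher and 5 lower. With *Mir140*-null replicates 3 and 4 only these became 1 and 0, without the filter 2 were lower, and after quantile normalization 3 were lower. Leaving out single libraries gave 1 to 3 higher and 2 to 5 lower. Of the SOX9 cofactors, 3 were called higher and 0 lower. The number higher was 1 with median-ratio scaling or no filter, 5 at a mean of at least 5 TPM or with 1 factor from residuals, 2 after quantile normalization and 0 with *Mir140*-null replicates 3 and 4 only. The number lower was 1 with 1 factor from residuals or quantile normalization. Leaving out single libraries gave 0 to 4 higher and 0 to 1 lower. Fewer libraries enter the fits that leave some out, and the other causes were not tested. With the shortest 3′UTR, 2 members held a miR-140-3p.1 match and 2 a miR-140-3p.2 match, beside 3 and 2. Without wild-type replicate 1 or *Mir140*-null replicate 1, 2 or 3, *Sox12* missed the filter and has no value, nor has it with *Mir140*-null replicates 3 and 4 only. At a mean of at least 5 TPM, *Sox11*, *Sox12* and *Sox5os3* were not tested.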
